A study of Rattus norvegicus with 6 samples.

Results

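The receptors for glutamate, GABA, glycine and acetylcholine were examined gene by gene in RNA from the rat vestibular epithelium, the inner ear tissue that holds the hair cells (HCs). The set was chosen by name: the protein-coding genes whose symbols belong to the ionotropic or metabotropic glutamate, GABA-A, GABA-B, glycine, nicotinic or muscarinic receptor families, plus Gad1 and Gad2, the GABA-synthesising enzymes. It held 73 of the 32883 genes measured (22250 of them protein-coding). Tissue came from 6 Long-Evans rats. Of these, 3 Control animals received PBS, and 3 STREP animals received streptomycin, an aminoglycoside antibiotic that damages HCs, in PBS at 500 mg/kg subcutaneously, once daily from postnatal day 21 for 6 weeks. Both groups held 2 males (replicates 1 and 2) and 1 female (replicate 3), and all libraries carried the same batch label. The titles of STREP replicates 1 and 2 share a number, followed by RF in replicate 1 and LF in replicate 2. All other titles carry RF, and the labels do not state the meaning of the number or letters. STREP replicates 1 and 2 were taken as separate animals because each sample is described as the pooled tissue of one animal. The STREP SDs and all p-values rest on this. For each rat, 2 utricles and 6 cristae were pooled into one sample, so HCs, supporting cells, nerve endings, glia and stroma were measured together. The comparison asks which transcripts differ after this subchronic exposure.

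HCs release glutamate from ribbon synapses onto vestibular afferents, which carry AMPA and NMDA receptors. Efferent neurons of the brainstem run the opposite way and release acetylcholine onto type II HCs and afferent endings. On the HC this transmitter opens a channel built from the α9 and α10 nicotinic subunits, encoded by Chrna9 and Chrna10, and the entering calcium opens a potassium channel that inhibits the cell. GABA-A and glycine receptors are chloride channels, whereas GABA-B and metabotropic glutamate receptors act through G proteins.

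Library totals were 48568191 to 59906048 counts in Control and 29333584 to 33744909 in STREP animals, so depth was lower in every STREP library. Values below are normalised counts, that is counts divided by the DESeq2 size factor of the library. The detection floor of 3 counts was 1.84 to 2.58 normalised counts in Control and 3.24 to 4.49 in STREP libraries. HC identity was checked with 10 markers, which were detected in all libraries, with summed levels of 81665 to 86342 in Control and 70391 to 84441 in STREP animals. Otof and Myo6, with means of 27249 and 22027, were the largest terms. The median log2 fold change of the HC list was -0.19. Myo7a (-0.49), Lhfpl5 (-0.45), Tmc1 (-0.40) and Slc17a8 (-0.30) were lower in STREP animals with no overlap. Gfi1 (1.20) was higher with no overlap, and the rest overlapped. Marker sums were 55434 to 59906 and 61969 to 80673 for supporting cells, 8527 to 9579 and 8119 to 9282 for neurons, and 432798 to 626261 and 278898 to 630433 for Schwann cells and glia, in Control and STREP animals respectively. Isl1 was the largest term of the neuronal sum, with a mean of 4463 normalised counts over all libraries. S100b was the largest of the glial sum, with a mean of 234823. Within the neuronal list the defining marker Stmn2 had at most 30.1 normalised counts and was at 0 in 3 libraries, and Tubb3 was the 1 marker of 10 called, higher in STREP animals by 1.28 on the log2 scale (DESeq2 adjusted p = 0.0182). Of 8 Schwann cell and glial markers, Sox10 was called, higher by 0.95, while the other 7 had log2 fold changes below 0 and were not called, the list median being -0.37. Among these, Mbp (-0.59), Mag (-0.65) and Cnp (-0.40), genes of myelin, had no overlap. Sums were 3409 to 4796 and 4371 to 5205 for macrophages, 13302 to 18933 and 10853 to 17681 for fibroblasts and vessels, and 209.9 to 601 and 489 to 631 for skeletal muscle, with no marker called. The muscle sum was mostly Myh4 and Des, with means of 302 and 139 normalised counts. Ckm, Acta1, Tnnt3 and Mylpf had means of 0.205, 2.94, 1.64 and 7.95. Sox9 (0.37), Jag1 (0.53) and Otogl (0.20) of the supporting cell list were higher in STREP animals with no overlap, not called. So were C1qa (0.45) and C1qb (0.47) of the macrophage list. Over all genes tested, 17.8% had no overlap in either direction. Transcript lengths were not used, so no level is compared between genes.

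Of the 73 genes, 14 had 0 counts in all libraries, 9 had counts too low to be tested, and 50 were tested in the fit over all genes. A gene was called when its adjusted p was under 0.05 and its fold change exceeded 1.5. The genes called lower in STREP animals were 2 (Chrna9 and Chrna10), against 1.37% of all 16250 genes tested. Those called higher were 3 (Grin1, Grid1 and Gabra2), against 1.87% of all genes tested. The Control and STREP values of 12 tested receptor genes did not overlap, against 17.8% of all genes tested. For the 43 receptor genes with a mean of at least 10 normalised counts, the median log2 fold change was 0.03, with 21 genes below 0 and 22 above, beside a median of 0.01 over all 14957 genes at that level. The sign of the receptor median depended on single animals, with values from -0.14 to 0.13 when each was left out in turn.

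**Figure D1:**
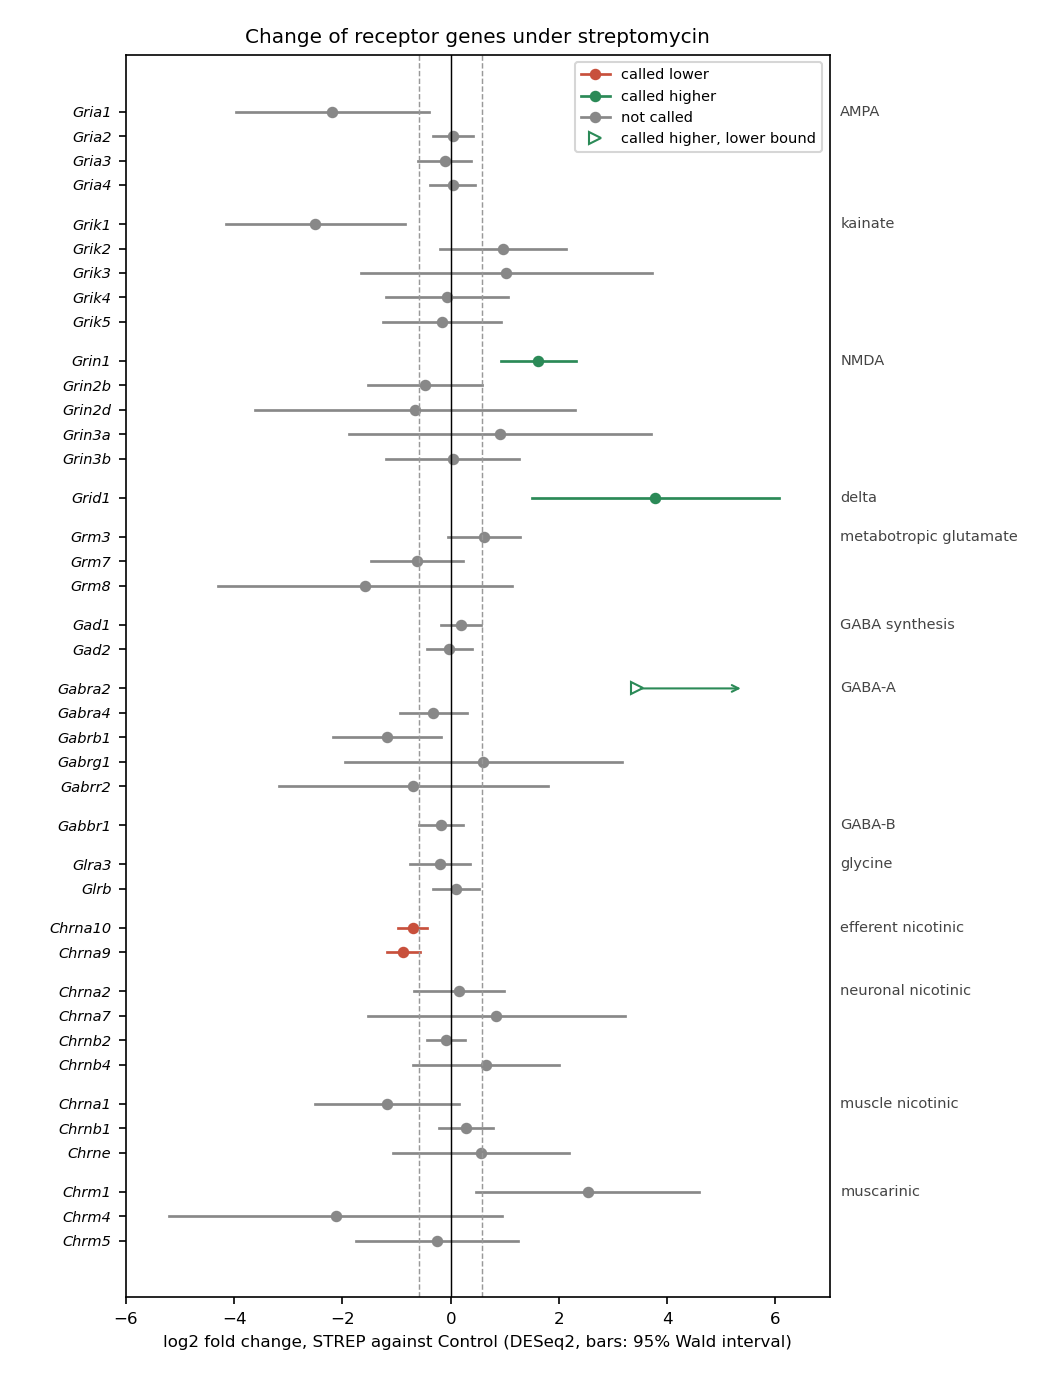
Log2 fold change (STREP over Control) of 40 of the 43 receptor genes with a mean of at least 10 normalised counts, grouped by receptor class. Points are DESeq2 estimates with 95% Wald intervals (red called lower, green called higher, grey not called; dashed lines at 1.5-fold), and Gabra2 is an open triangle at its lower bound because all Control libraries were at 0. The red points are Chrna10 (-0.70) and Chrna9 (-0.88), and most grey intervals cross 0.

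Both subunits of the HC efferent receptor were lower in STREP animals, Chrna9 by 1.84-fold and Chrna10 by 1.63-fold. Chrna9 (ENSRNOG00000002484), the subunit that can form a channel on its own, had 2458, 2581 and 2485 normalised counts in the Control rats (replicates 1 to 3) and 1267, 1596 and 1231 in the STREP rats. Every STREP value lay below every Control value, with means of 2508 ± 64.5 and 1365 ± 201 (SD, n = 3 per group). The log2 fold change was -0.88 ± 0.16 (SE; 95% Wald interval -1.18 to -0.57; DESeq2 adjusted p = 3.57e-06).

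Chrna10 (ENSRNOG00000020293), which adds to the current that Chrna9 carries, had 10760.0, 11174 and 12635 normalised counts in the Control rats (replicates 1 to 3) and 7604, 6394 and 7257 in the STREP rats. The groups again did not overlap, with a Control mean of 11523 ± 985 and a STREP mean of 7085 ± 623 (SD, n = 3 per group). The log2 fold change was -0.70 ± 0.13 (SE; 95% Wald interval -0.97 to -0.44; DESeq2 adjusted p = 2.21e-05). Both genes were called under each of the other tools, size factors, filters and sample choices tried, including males alone and without any one animal. In these bulk samples, fewer cells of a type and less RNA per cell cannot be told apart.

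**Figure D2:**
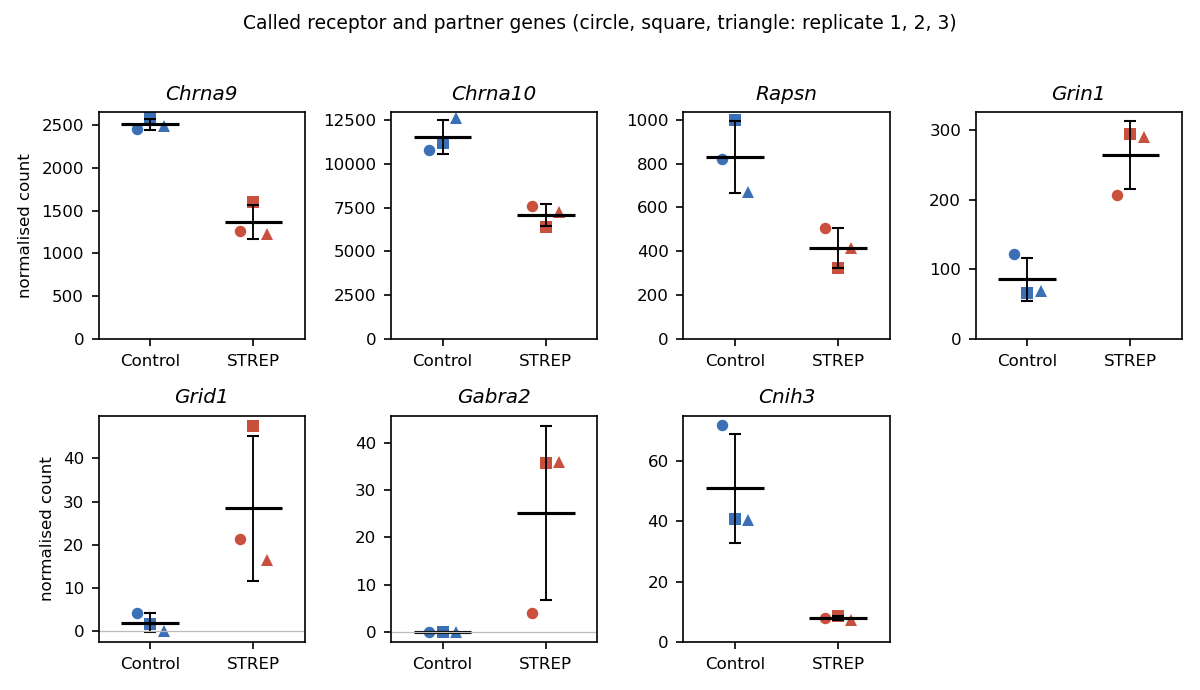
Normalised counts per animal for the 5 called receptor genes and the partner genes Rapsn and Cnih3, in Control and STREP animals. Points are animals (circle, square and triangle for replicates 1, 2 and 3), with the group mean and its SD (n = 3), and the STREP values of Chrna9, Chrna10 and the partner genes all lie below the Control values while those of Grin1, Grid1 and Gabra2 lie above.

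The efferent subunits were also set against the HC markers of the same library, a comparison that needs no size factor. The log2 ratio of Chrna9 to the geometric mean of the 10 HC markers was -0.79, -0.57 and -0.70 in the Control rats and -1.46, -1.29 and -1.63 in the STREP rats. For Chrna10 the same ratio was 1.34, 1.54 and 1.65 in Control and 1.13, 0.71 and 0.93 in STREP animals. The groups did not overlap for either gene, with differences of -0.77 and -0.59 (permutation p = 0.1 for each, exact and two-sided, the lowest that n = 3 against 3 allows). One marker on the list, Gfi1, was itself called higher in STREP animals, by 1.20 on the log2 scale (DESeq2 adjusted p = 2.37e-06), and without it the differences were -0.62 and -0.44. No HC marker was called lower, although Myo7a (log2 fold change -0.49) and Lhfpl5 (-0.45) had DESeq2 adjusted p-values of 0.0162 and 0.0161 with fold changes under 1.5. The balance of the pair was not resolved. The log2 ratio of Chrna10 to Chrna9 counts was 2.13, 2.11 and 2.35 in Control and 2.58, 2.00 and 2.56 in STREP animals, and the groups overlapped (permutation test, exact and two-sided, p = 0.4).

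**Figure D3:**
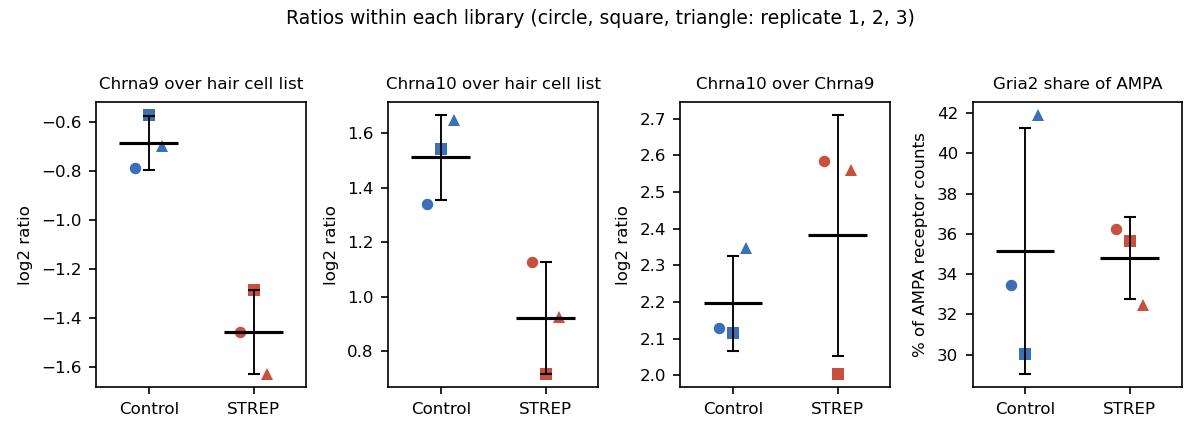
Ratios within each library (log2) and the Gria2 share of AMPA receptor counts (%), per animal, with the group mean and SD (n = 3). The ratios of Chrna9 and Chrna10 to the HC marker list separate the groups, while the Chrna10 to Chrna9 ratio and the Gria2 share, described with the AMPA receptors, overlap.

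The cholinergic partner list held 12 genes, of which 8 were tested, with 1 called lower and none higher. Over all genes tested, 1.37% were called lower and 1.87% higher. The one called was Rapsn, encoding rapsyn, which anchors nicotinic receptors at the muscle endplate. It had 821, 1001 and 673 normalised counts in the Control rats (replicates 1 to 3) and 507, 325 and 417 in the STREP rats, with no overlap and means of 831 ± 165 and 417 ± 91.1 (SD, n = 3 per group). Its log2 fold change was -0.999 ± 0.24 (SE; DESeq2 adjusted p = 0.00205), and the call was lost without Control replicate 2 (-0.85, DESeq2 adjusted p = 0.0616). Kcnn2, the calcium-activated potassium channel coupled to the efferent receptor, had 38.7, 20.4 and 70.5 normalised counts in Control and 26.6, 42.1 and 49.4 in STREP animals, with overlapping groups (log2 fold change -0.13, 95% Wald interval -1.41 to 1.14). Kcnma1, the large-conductance calcium-activated potassium channel, had no overlap but was not called (log2 fold change -0.51, DESeq2 adjusted p = 0.466). The genes that define the cholinergic neuron, Chat, Slc18a3 and Slc5a7, had 0 counts in all libraries. The efferent neurons lie in the brainstem, outside the pooled tissue, so these counts do not show whether their terminals were present or changed.

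The promoters of the 3 called genes with a mean of at least 100 normalised counts are shown because these are the receptor genes whose calls rest on the most counts. Each is the 250 bases upstream of the RefSeq start in the GRCr8 build, printed in the gene's sense, with E-boxes (CANNTG, the core site of basic helix-loop-helix factors) in capitals. RefSeq promoters matched 52 of the 73 genes. The windows are chr14:42595670-42595919 for Chrna9, chr1:165903459-165903708 for Chrna10 and chr3:28528755-28529004 for Grin1, all on the minus strand. The Chrna10 start site used lies 1890 bases inside the RefSeq span of the gene.
Chrna9: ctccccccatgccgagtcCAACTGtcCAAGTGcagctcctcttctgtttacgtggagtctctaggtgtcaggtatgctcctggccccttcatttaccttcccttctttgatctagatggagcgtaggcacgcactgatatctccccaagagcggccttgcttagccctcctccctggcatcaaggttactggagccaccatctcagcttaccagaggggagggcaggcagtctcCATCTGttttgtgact
Chrna10: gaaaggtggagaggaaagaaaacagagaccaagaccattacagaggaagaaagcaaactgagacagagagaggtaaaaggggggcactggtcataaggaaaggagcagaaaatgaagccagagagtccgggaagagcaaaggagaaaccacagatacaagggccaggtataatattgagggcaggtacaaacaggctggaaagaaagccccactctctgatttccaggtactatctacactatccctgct
Grin1: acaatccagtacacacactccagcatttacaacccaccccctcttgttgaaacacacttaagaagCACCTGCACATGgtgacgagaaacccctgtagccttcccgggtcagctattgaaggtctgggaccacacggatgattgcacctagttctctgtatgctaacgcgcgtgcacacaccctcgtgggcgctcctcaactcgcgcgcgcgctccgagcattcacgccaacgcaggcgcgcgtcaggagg
The Chrna9 window held 3 E-boxes, the Chrna10 window 0 and the Grin1 window 2, where 65.2% of all 27457 promoters of this length held at least 1 and 33 of the 52 matched receptor promoters did. The element TGATGNAA, read on both strands as the site of the stress factor ATF4, was in none of these 3 windows and in 3.27% of all promoters. The half-site TGACG of the cyclic AMP response element, also read on both strands, occurred 2 times in the Grin1 window. It occurred 0 times in the Chrna9 and Chrna10 windows, and 19.0% of all promoters and 6 of the 52 receptor promoters held it. The Grin1 window was rich in CpG, with 19 CpG dinucleotides and 57.6% GC. The Chrna9 window had 5 CpG and 55.2% GC and the Chrna10 window 1 CpG and 47.2% GC, beside medians of 6 CpG and 52% GC over all promoters. A letter match describes the sequence and is not evidence of binding.

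AMPA receptors carry the fast glutamate current of the afferent ending, and none of their 4 subunit genes was called. The cells that held these transcripts were not identified in the bulk tissue. The values therefore do not show whether the receptors of the afferent endings changed. Gria2, whose subunit makes the channel impermeable to calcium, had 2188, 2004 and 1955 normalised counts in Control and 2436, 2309 and 1574 in STREP animals. Gria4 had 3605, 3730.2 and 2161 normalised counts in Control and 3534, 3430.1 and 2759.9 in STREP animals. Gria3 had 719, 885 and 521 normalised counts in Control and 743, 721 and 509 in STREP animals. The groups overlapped for these 3 genes, with 95% Wald intervals of the log2 fold change of -0.33 to 0.41 for Gria2, -0.39 to 0.46 for Gria4 and -0.60 to 0.38 for Gria3, which exclude a 1.5-fold change in either direction for Gria2 and Gria4 and a 1.5-fold rise for Gria3. Gria2 made up 33.5, 30.0 and 41.9% of AMPA receptor counts in Control and 36.3, 35.7 and 32.5% in STREP animals, with no separation of the groups (permutation test, exact and two-sided, p = 0.9) and a Wilson interval at most 3.22 points wide in any library.

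Gria1, the remaining AMPA subunit, had 22.1, 55.3 and 26.7 normalised counts in Control and 5.33, 14.04 and 2.99 in STREP animals. Its groups did not overlap, but counts were low and it was not called (log2 fold change -2.19 ± 0.91, SE; DESeq2 adjusted p = 0.218).

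Among the kainate receptor subunits, Grik1 had 47.9, 122 and 77.4 normalised counts in Control and 35.9, 3.24 and 4.49 in STREP animals. Its STREP values lay below all Control values, the highest being in replicate 1, and it was not called (log2 fold change -2.50 ± 0.84, SE; DESeq2 adjusted p = 0.0712). Without STREP replicate 1, the STREP animal with the highest value, the log2 fold change was -4.43 and the gene was called lower. In every other fit it was not called. Adjusted p then ran from 0.0573 (DESeq2, sex as a covariate) to 0.477 (DESeq2, without Control replicate 2). Grik1 made up 29.0, 32.1 and 22.0% of kainate receptor counts in Control and 9.61, 1.26 and 2.22% in STREP animals (permutation p = 0.1, exact and two-sided, the floor of this design; Wilson intervals up to 10.8 points wide). Grik4, an accessory high-affinity subunit, had 43.0, 99.5 and 172 normalised counts in Control and 139.8, 113 and 46.4 in STREP animals, and its animals spread so widely that the interval of the log2 fold change ran from -1.19 to 1.06. Grik2, Grik3 and Grik5 overlapped between groups, with log2 fold changes of 0.97, 1.02 and -0.17 and adjusted p-values of at least 0.561 (DESeq2).

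Grin1 (ENSRNOG00000011726), the obligatory subunit of every NMDA receptor, was 3.08-fold higher in STREP animals. It had 122, 66.3 and 68.8 normalised counts in the Control rats (replicates 1 to 3) and 208, 295 and 290.2 in the STREP rats. The lowest STREP value exceeded the highest Control value, which was that of replicate 1, and the means were 85.5 ± 31.2 and 264 ± 49.0 (SD, n = 3 per group). The log2 fold change was 1.62 ± 0.36 (SE; 95% Wald interval 0.92 to 2.32; DESeq2 adjusted p = 0.000416). The call held without any one animal and under edgeR, and was lost in males alone (1.42, DESeq2 adjusted p = 0.118). Supporting cell marker sums were also higher in every STREP library, with a list median log2 fold change of 0.28 and no marker called. Tubb3 (1.28), Sox10 (0.95) and Gfi1 (1.20), from the neuronal, glial and HC lists, were called higher, each the only marker called in its list. The median log2 fold changes of these lists were 0.28 (neuronal), -0.37 (glial) and -0.19 (HC), so Sox10 and Gfi1 ran against the rest of their lists. The part of any cell type in the result was not tested.

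No other NMDA receptor subunit was called. Grin2b, a glutamate-binding subunit, had 64.4, 63.8 and 101 normalised counts in Control and 81.2, 27.0 and 56.8 in STREP animals, with overlapping groups (log2 fold change -0.48, DESeq2 adjusted p = 0.854). Grin2d, Grin3a and Grin3b had log2 fold changes of -0.66, 0.91 and 0.04, none of them called, and Grin2a was detected in STREP replicate 1 alone, at 45.3 normalised counts. Grin1 made up 38.7, 33.6 and 30.9% of NMDA receptor counts in Control and 42.7, 83.7 and 69.5% in STREP animals (permutation p = 0.1, exact and two-sided, the floor of this design). Wilson intervals of these shares were up to 12.1 points wide.

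Grid1 (ENSRNOG00000055499), a delta receptor that links synapses through secreted cerebellins, was called higher from low counts. It had 4.30, 1.70 and 0 normalised counts in the Control rats (replicates 1 to 3) and 21.3, 47.5 and 16.5 in the STREP rats, from 7, 2 and 0 counts in Control and 16, 44 and 11 in STREP libraries. The log2 fold change was 3.78 ± 1.16 (SE; 95% Wald interval 1.49 to 6.06; DESeq2 adjusted p = 0.0357). The call was lost under edgeR (3.68, adjusted p = 0.131), with library totals as size factors (3.80, DESeq2 adjusted p = 0.109), in males alone, after thinning of the libraries to the smallest total, and without any one animal other than Control replicate 1.

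No metabotropic glutamate receptor was called. Grm3, an inhibitory group II receptor, had 264, 216 and 199 normalised counts in Control and 521, 307 and 214 in STREP animals (log2 fold change 0.62, 95% Wald interval -0.05 to 1.29). Grm7, a group III presynaptic receptor, had 429, 196 and 164 normalised counts in Control and 228, 187 and 98.7 in STREP animals (log2 fold change -0.62, 95% Wald interval -1.47 to 0.23). Levels of each overlapped between the groups, yet within the class the shares separated. Grm3 made up 32.7, 48.0 and 48.0% of class counts in Control and 64.7, 60.6 and 52.6% in STREP animals, and Grm7 made up 53.2, 43.5 and 39.7% and 28.3, 36.9 and 24.3% (permutation p = 0.1 for each, exact and two-sided, the floor of this design). Shares within a class are not independent of each other, and none of the 55 shares and ratios compared reached an adjusted p below 0.393 by Benjamini-Hochberg correction of the exact permutation p-values.

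Grm8, another group III receptor, had 62.0, 18.7 and 34.4 normalised counts in Control and 0, 0 and 38.9 in STREP animals. Both STREP males were at 0 while the STREP female lay within the Control range, and the gene was not called (log2 fold change -1.58, DESeq2 adjusted p = 0.774). It was called lower with sex added to the model (DESeq2 adjusted p = 0.0263), in males alone (0.00961) and without STREP replicate 3 (0.00168). The latter 2 fits left out the STREP female, the only STREP animal with counts, so their calls follow from that choice. All STREP libraries in them were at 0, so no fold change is given.

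Vesicular glutamate transporters load the vesicles that release glutamate. Slc17a8, the vesicular glutamate transporter of HCs, had 3533, 3205 and 3311 normalised counts in Control and 2797, 2599.9 and 2763 in STREP animals. The groups did not overlap and the gene was not called (log2 fold change -0.30 ± 0.13, SE; DESeq2 adjusted p = 0.225). Slc17a6, the transporter of many glutamatergic neurons, had at most 28.4 normalised counts in any library, and Slc17a7 had 0 counts in all of them.

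The list of auxiliary and scaffold proteins of glutamate receptors held 22 genes found in the table, of which 16 were tested. Of these, 1 was called lower and none higher, against 1.37% and 1.87% of all genes tested. Cnih3, a cornichon protein that slows the closing of AMPA receptors, had 71.8, 40.8 and 40.4 normalised counts in the Control rats (replicates 1 to 3) and 7.99, 8.64 and 7.48 in the STREP rats. The STREP libraries lay close together and below all Control libraries (log2 fold change -2.67 ± 0.72, SE; DESeq2 adjusted p = 0.00855). The call was lost under edgeR (-2.65, adjusted p = 0.0793), with library totals as size factors (-2.69, DESeq2 adjusted p = 0.0569), in males alone and without Control replicate 1. Shank1, a postsynaptic scaffold, had no overlap and was not called (log2 fold change -1.70, DESeq2 adjusted p = 0.0616).

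**Figure D4:**
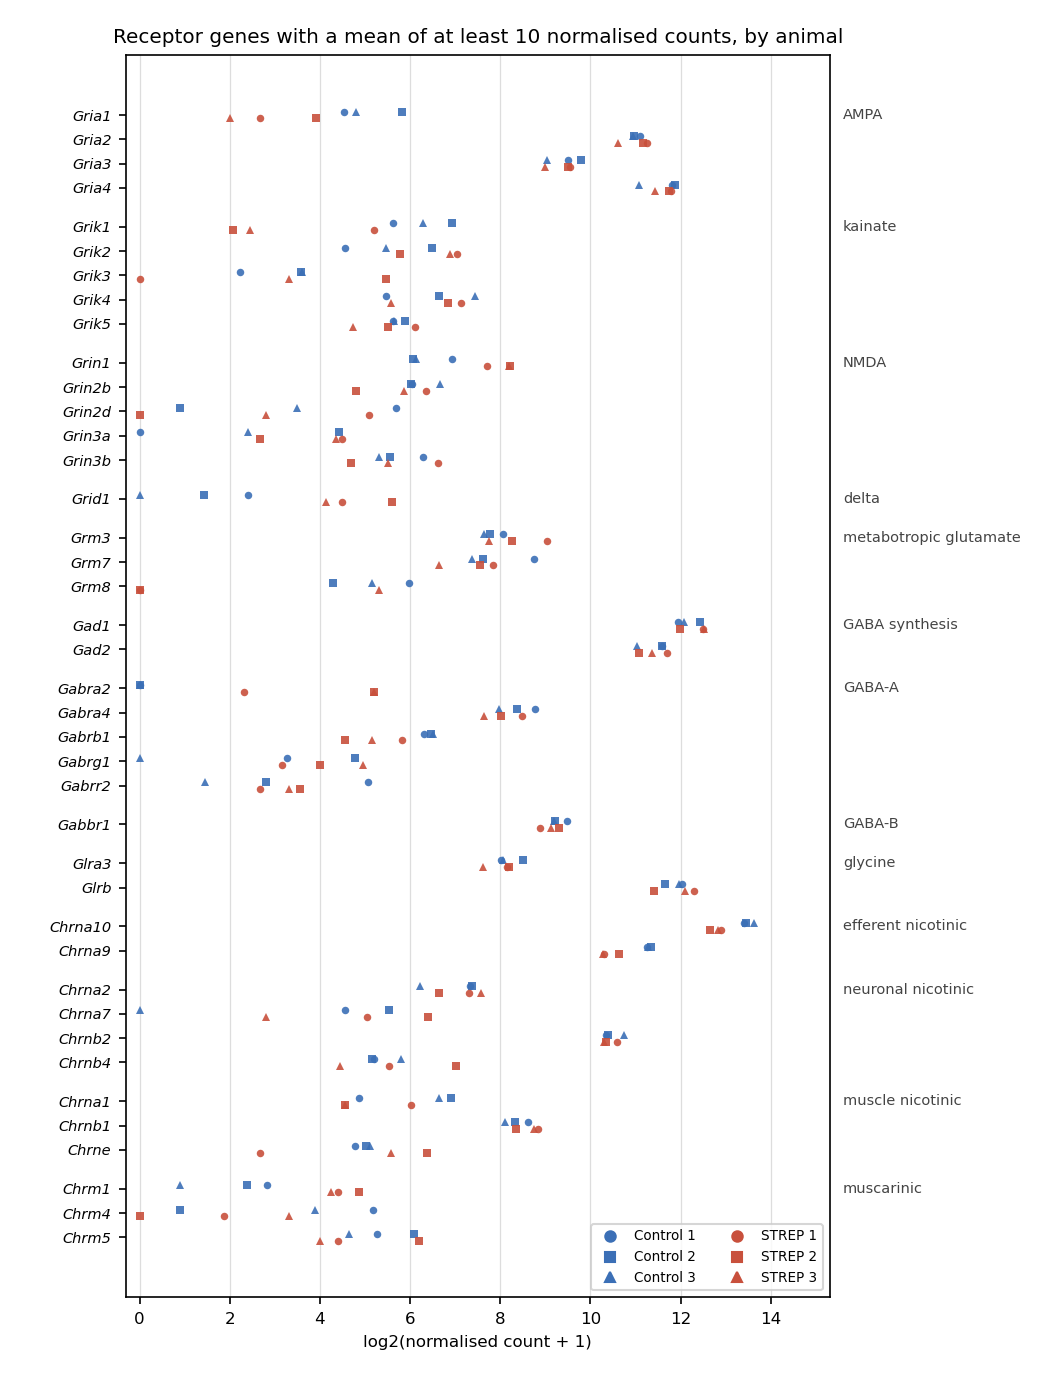
Levels of 40 of the 43 receptor genes with a mean of at least 10 normalised counts, as log2(normalised count + 1), per animal (blue Control, red STREP; circle, square and triangle for replicates 1, 2 and 3). The colours separate for Chrna9, Chrna10 and Grin1 and overlap for Gria2, Gria4, Gad1 and Gad2; levels of different genes are not scaled for length.

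The enzymes of GABA synthesis were not called. Gad1 had 3916, 5481 and 4328 normalised counts in Control and 5766, 4070.4 and 5850.5 in STREP animals, and Gad2 had 3092, 3063 and 2087 normalised counts in Control and 3318, 2149.6 and 2621 in STREP animals. The groups overlapped for both, and the 95% Wald intervals of the log2 fold change, -0.18 to 0.56 for Gad1 and -0.44 to 0.39 for Gad2, exclude a 1.5-fold change in either direction. Slc32a1, the vesicular transporter that loads GABA and glycine, had 0 counts in all libraries. Of the 9 genes found for GABA and glycine transport, breakdown and scaffolding, 8 were tested and none was called, against 3.24% of all genes tested. The GABA transporter Slc6a11 (log2 fold change 2.09) and the glycine transporter Slc6a9 (0.62) had no overlap, with DESeq2 adjusted p-values of 0.264 and 0.603.

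Of the 19 GABA-A receptor genes, 7 had no count in any library and 1 was called. Gabra2 (ENSRNOG00000002349) had 0 counts in the 3 Control libraries and 3, 33 and 24 counts in STREP replicates 1, 2 and 3, which are 3.99, 35.6 and 35.9 normalised counts. The STREP mean was at least 10.8-fold higher than a floor of 3 counts in each Control library (DESeq2 adjusted p = 0.00111), and STREP replicate 1 was itself at that floor. The call was lost without STREP replicate 3 (DESeq2 adjusted p = 0.0581) and in males alone (0.101), and the count filters of the edgeR fit and of 10 counts in 3 samples left the gene out. Gabra4 had 434, 328 and 249 normalised counts in Control and 357, 257 and 197 in STREP animals, with overlap (95% Wald interval of the log2 fold change -0.94 to 0.30).

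Gabrb1 had 77.9, 86.7 and 89.4 normalised counts in Control and 55.9, 22.7 and 34.4 in STREP animals. The groups did not overlap and it was not called (log2 fold change -1.17 ± 0.51, SE; DESeq2 adjusted p = 0.256). Its share of GABA-A receptor counts was 13.3, 16.9 and 24.9% in Control and 11.9, 6.12 and 10.4% in STREP animals (permutation p = 0.1, exact and two-sided, the floor of this design). Gabrg1 and Gabrr2 overlapped between groups, with log2 fold changes of 0.60 and -0.69. Gabrg3 had 12.9, 3.40 and 2.58 normalised counts in Control (21, 4 and 3 counts) and 0 in all STREP animals, and was not called (DESeq2 adjusted p = 0.437).

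The GABA-B receptor works as a pair of Gabbr1, which binds GABA, and Gabbr2, which couples to the G protein. Gabbr1 had 708, 590.0 and 581 normalised counts in Control and 469, 627 and 559 in STREP animals, with overlap (log2 fold change -0.18, 95% Wald interval -0.58 to 0.22). Gabbr2, singled out after its values were seen, had 25.2, 11.1 and 15.5 normalised counts in Control and 1.33, 0 and 0 in STREP animals. These rest on 72 counts in Control and 1 in STREP libraries, a ratio 42.6-fold lower in STREP animals with a 95% interval of 7.40 to 1704-fold that covers counting error only, and the test over animals did not call it (DESeq2 adjusted p = 0.0545).

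Of the 5 glycine receptor genes, Glra3 and Glrb were tested, and the other 3 had no or few counts. Glra3, a channel-forming subunit, had 257, 362 and 265 normalised counts in Control and 281, 294 and 196 in STREP animals. Glrb, the subunit that ties the receptor to gephyrin, had 4152, 3207 and 3968 normalised counts in Control and 4987, 2733 and 4364 in STREP animals. Both overlapped between groups (95% Wald intervals of the log2 fold change -0.75 to 0.36 and -0.33 to 0.52), and neither was called.

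Outside the efferent pair, no nicotinic or muscarinic receptor gene was called. Chrnb2, a neuronal subunit, had 1296, 1330.4 and 1718 normalised counts in Control and 1536, 1297 and 1254 in STREP animals, and its interval (-0.44 to 0.26) excludes a 1.5-fold change in either direction. Chrna2 had 161, 165 and 73.1 normalised counts in Control and 157, 99.3 and 190.0 in STREP animals (95% Wald interval -0.68 to 0.99). Chrna7, which forms channels on its own, and Chrnb4 had log2 fold changes of 0.84 and 0.65, with overlap, and Chrna6 was detected in STREP replicate 3 alone, at 28.4 normalised counts.

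Of the muscle-type subunits, Chrnb1 had 391, 322 and 273 normalised counts in Control and 455, 324 and 426 in STREP animals (95% Wald interval of the log2 fold change -0.21 to 0.78). Chrna1 had 28.2, 119.9 and 98.9 normalised counts in Control and 63.9, 22.7 and 22.4 in STREP animals, and Chrne had a log2 fold change of 0.56. All 3 overlapped between groups, and Chrnd had no count in any library.

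Among the muscarinic receptors, Chrm1 had 6.14, 4.25 and 0.860 normalised counts in Control and 19.97, 28.1 and 18.0 in STREP animals. The groups did not overlap, counts were low and it was not called (log2 fold change 2.53 ± 1.05, SE; DESeq2 adjusted p = 0.218). Chrm4 and Chrm5 overlapped, with log2 fold changes of -2.13 and -0.25, and Chrm3 did not exceed 22.6 normalised counts in any library.

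The 14 genes with no count in any library included Gabra3, Gabra5, Gabra6, Gabrd, Gabrq, Glra1, Glra2, Grin2c, Grm2, Grm5, Chrna3 and Chrnd (0 counts, which allows up to 3 counts per library, or 1.84 to 4.49 normalised counts). A further 9, with means between 0.283 and 2.60 normalised counts, were not tested: Gabrb2, Gabrp, Gabrr1, Gabrr3, Glra4, Chrm2, Chrna4, Chrna5 and Chrnb3. The tested Gabre and Grm6 also had means below 10. Gabre overlapped between groups, and Grm6 had 2.46, 14.5 and 0.860 normalised counts in Control and 0 in all STREP animals, not called (DESeq2 adjusted p = 0.504).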

How the data were processed

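RNA from 6 pooled vestibular epithelia was sequenced by the SMARTseq2 method, which primes on the poly(A) tail and keeps no strand, so reads of a gene and of an overlapping antisense gene cannot be told apart. The authors aligned reads to the rat genome (Rnor6.0) with STAR 2.5.3a and quantified genes with RSEM 1.3.0, as the submitters' processing notes name them, and deposited expected counts per gene, which divide reads among similar genes. All deposited values were whole numbers.

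Counts of all 32883 genes were fitted with DESeq2 1.42.0 in R 4.3.3, with median-of-ratios size factors, Wald tests and independent filtering at 0.05. Genes were called at a Benjamini-Hochberg adjusted p under 0.05 and a fold change over 1.5. Shares and ratios within a library were compared by exact two-sided permutation tests over animals. Wilson and counting intervals and floors (3 counts) cover counting error only, since the reads carry no molecular identifiers. Groups came from the labels, and the replicate numbers follow the order of deposition.

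Receptor genes, partner lists and marker lists were chosen with earlier results of these data known. Genes were named with all values if called, if their groups did not overlap at a mean of at least 10 normalised counts, or if the mean was at least 100. Kcnn2, Slc17a8 and Slc17a6 were named whatever their values. Of the partner genes that did not overlap but were not called, Kcnma1, Shank1, Slc6a11 and Slc6a9 were named after their values were seen, as were Gabbr2 and Grm8. Alternatives were edgeR 4.0.16 with a count filter, other size factors, at least 10 counts required in 3 libraries, independent filtering off, no fold change threshold, sex as a covariate, males alone and each animal left out. Thinning to the smallest library and the HC list without Gfi1 were chosen after seeing the data. The procedure was tested on simulated data. The sex effect on each difference was tested as an interaction in DESeq2. Promoters came from RefSeq (GRCr8), a build other than that of the counts. Some genes of the set and of the partner lists are not reported here.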

Additional observations from a re-analysis of the deposited data

Results flagged for a closer look

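The STREP minus Control difference was set side by side for the female pair (n = 1 per group) and the male pairs (n = 2 per group), as differences of mean log2(normalised count + 1). Of the genes named, 5 had a difference of opposite sign in the sexes and no overlap between the STREP and Control males. The share of all genes that meets this rule was not computed, so the 5 cannot be placed against it. The female minus male values were -0.492 for Gria2, 0.428 for Gria4, -2.80 for Grik4, 1.75 for Chrna2 and 5.31 for Grm8. For Grm8 the difference was 0.172 in the female pair and -5.14 in males. The sex by treatment interaction in DESeq2 gave adjusted p-values of 0.999 for Gria2 and Gria4, 0.691 for Grik4 and 0.924 for Chrna2, so none of these passed. For Grm8 the unadjusted interaction p was 0.00333 (DESeq2) and its count was too low for an adjusted value. With a single female per group, the sexes and single animals cannot be told apart.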

How the results depend on the processing

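Chrna9 and Chrna10 kept their direction and call under every alternative run, with log2 fold changes of -1.01 to -0.81 and -0.76 to -0.63 when each animal was left out. The number of receptor genes called higher fell from 3 to 1 under edgeR and to 0 in males alone, and was 1 to 3 with each animal left out; the number called lower was 2 to 3. Genes called over the whole table numbered 264 under edgeR, 309 with library totals as size factors and 404 in males alone, against 527. The median log2 fold change of receptor genes ran from -0.14 to 0.13 with each animal left out. The Gria2 share of AMPA receptor counts changed sign in males alone (4.21 points) and ran from -2.90 to 3.05 points with each animal left out.

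Among genes not called, the sign changed in males alone for Gria4 (-0.077), Grik4 (0.83), Chrna2 (-0.35), Chrnb2 (0.11) and Kcnn2 (0.22), with library totals for Grik4 (0.026), and after thinning for Kcnn2 (0.10); the cause was not tested. With each animal left out, log2 fold changes of genes whose sign changed ran from -0.076 to 0.21 (Gria2), -0.28 to 0.083 (Gria3), -0.18 to 0.17 (Gria4), -0.20 to 0.11 (Gad2), -0.090 to 0.31 (Glrb), -0.44 to 0.49 (Grik4), -0.13 to 0.38 (Chrna2), -0.18 to 0.054 (Chrnb2), -0.81 to 0.33 (Slc17a6) and -0.47 to 0.41 (Kcnn2). The male alternatives left 2 animals per group. No paired analysis was possible because the replicate numbers were given in the order of deposition and pair no animals. Dividing counts by coding length was not run, since no coding lengths were used here. Depth limits genes under 10 normalised counts most.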
